A study of Mus musculus with 9 samples.

Results

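The miR-34 and miR-449 family was followed through the lungs of 9 mice, as 7 mature miRNAs chosen by name from the 1881 mouse miRNAs on the array: mmu-miR-34a-5p, mmu-miR-34b-5p, mmu-miR-34b-3p, mmu-miR-34c-5p, mmu-miR-34c-3p, mmu-miR-449a-5p and mmu-miR-449c-5p, written without the species prefix from here on. The rule uses names alone. Each mouse gave 1 single-colour (Cy3) Agilent array, with 3 mice a group. The codonopsis group received Codonopsis pilosula, a plant of traditional Chinese medicine, at 15 g/kg for 30 days (2 males and 1 female). The model group received D-galactose and sodium nitrite, a treatment used to imitate ageing, for 42 days (3 females). The control group has no treatment named (1 male and 2 females). The title of the series describes the plant as an intervention in ageing mice, but whether its mice were also given D-galactose and nitrite is not stated for the codonopsis samples. Strain and age are not given in the sources used here, and the samples are whole lung tissue.

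miRNAs are short RNAs that guide repression of messenger RNAs, mainly through pairing of a seed near their 5′ end. The 5p arms of the miR-34 and miR-449 miRNAs belong to 1 seed family. miR-34b and miR-34c come from 1 primary transcript and the miR-449 miRNAs from another, and both groups are abundant in multiciliated cells, the airway cells whose beating cilia move mucus. In mouse they are known to support the making of motile cilia, with repression of Cp110, a protein that caps centrioles, as 1 of their roles. miR-34a comes from a separate gene, is made in many cell types and is a classic target of the transcription factor p53, which links it to senescence.

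The mature sequences are shown because shared seeds define the family, with the seed (bases 2 to 8) in capitals. Of those shown, 4 hold the same seed and 2 share another. miR-34c-5p is left out of the sequences and positions because the reference used did not hold it. Its seed and its identity to miR-34b-5p were therefore not checked.
miR-34a-5p: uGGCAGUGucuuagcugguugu
miR-34b-5p: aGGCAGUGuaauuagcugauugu
miR-449a-5p: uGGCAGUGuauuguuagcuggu
miR-449c-5p: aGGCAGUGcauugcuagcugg
miR-34b-3p: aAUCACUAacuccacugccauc
miR-34c-3p: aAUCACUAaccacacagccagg
These are RefSeq sequences, read 5′ to 3′, with positions on GRCm38.p6. miR-34a-5p and miR-34b-5p were identical at 19 of 23 aligned positions (82.6%), miR-449a-5p and miR-449c-5p at 18 of 22 (81.8%), and miR-34b-3p and miR-34c-3p at 17 of 22 (77.3%). miR-34b-5p and miR-449a-5p were identical at 18 of 25 aligned positions (72%). Cross-hybridisation between such close relatives was not tested.

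The members come from 3 places in the genome. miR-34a-5p lies at chr4:150068473-150068494 on the plus strand, in a gene, Mir34a, that overlaps no other annotated gene, and the nearest protein-coding gene is Gpr157, 18948 bases away. miR-34b-5p (chr9:51103610-51103632), miR-34b-3p (chr9:51103574-51103595) and miR-34c-3p (chr9:51103044-51103065) lie on the minus strand. Mir34b and Mir34c are 451 bases apart and sit inside the spans of the protein-coding genes Btg4 and Hoatz. miR-449a-5p (chr13:113037549-113037570) and miR-449c-5p (chr13:113036008-113036028) lie on the plus strand inside Cdc20b, a gene whose span holds Mir449a, Mir449b and Mir449c within 1642 bases.

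Signals below are log2 of the processed intensity after each array was divided by its own 75th percentile over 289 miRNAs detected on all arrays, so 0 is that percentile. A miRNA's levels are compared between arrays and not with those of another miRNA, since probes differ in brightness. Arrays detected 375 to 484 miRNAs. Per the file headers, codonopsis and model mice were hybridised on slide 1 and control mice on slide 2. An effect of the slide and one of the group therefore cannot be told apart wherever control is compared, but can between codonopsis and model. The array of control 1 was the least typical, with a median correlation of 0.886 to the rest, against 0.951 to 0.978 for the others. Results that rest on it are also given without it.

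Of the 7 members, 6 were detected on all 9 arrays. miR-449c-5p was detected on 0 of 9 arrays, with a processed intensity between -1.97 and -0.46, and it was not tested. The other arms and relatives on the array, miR-34a-3p, miR-449a-3p, miR-449b and miR-449c-3p, were also detected on no array. miR-449 is thus represented in these lungs by miR-449a-5p, while miR-34b and miR-34c are each represented by both arms.

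miR-34a-5p, from a gene that p53 targets, varied least of the detected members. It had log2 signals of 0.94, 0.55 and 0.87 in codonopsis lungs, 0.81, 0.87 and 1.06 in model lungs and 0.59, 0.93 and 0.77 in control lungs. The 9 arrays spanned 1.42-fold, and all 3 groups overlapped. Group means were 0.79 ± 0.21 in codonopsis, 0.92 ± 0.13 in model and 0.76 ± 0.17 in control lungs (SD, n = 3 each), so no neighbours in that order differed beyond their spread.

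miR-34b-5p and miR-34c-5p, the 5′ arms of the paired genes, followed each other closely. miR-34b-5p had 0.06, 1.55 and 0.92 in codonopsis lungs, 1.89, 0.86 and 1.71 in model lungs and 1.39, 1.50 and 1.17 in control lungs. miR-34c-5p had -0.85, 0.67 and 0.06 in codonopsis lungs, 0.86, -0.03 and 0.76 in model lungs and 0.73, 0.64 and 0.23 in control lungs. For both, codonopsis 1 was the lowest and model 1 the highest of the 9 arrays, 3.55-fold and 3.29-fold apart, and the groups overlapped. Model 2 was the second lowest array for both, although model 1 and model 3 were the highest pair. miR-34b-5p averaged 0.84 ± 0.75 in codonopsis, 1.48 ± 0.55 in model and 1.35 ± 0.17 in control lungs (SD, n = 3 each). miR-34c-5p averaged -0.04 ± 0.77 in codonopsis, 0.53 ± 0.49 in model and 0.53 ± 0.27 in control lungs (SD, n = 3 each).

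The 3′ arms of both genes were detected as well. miR-34c-3p had -4.32, -2.55 and -3.44 in codonopsis lungs, -2.50, -3.50 and -2.73 in model lungs and -2.75, -3.18 and -3.59 in control lungs. Codonopsis 1 was again lowest and model 1 highest, and the groups overlapped. miR-34b-3p had -5.98, -4.43 and -5.14 in codonopsis lungs, -4.58, -5.65 and -4.71 in model lungs and -2.75, -4.35 and -4.93 in control lungs. Here codonopsis 1 was lowest but control 1, the least typical array, was highest. On codonopsis 1, 0% of the spots of either miR-34b-3p probe were well above background, so that no fold is given between these extremes. The processed intensity of miR-34b-3p ran from 7.64 to 36.3, and the spots of a probe had a median coefficient of variation of 23.2%, against 9.30% to 11.1% for the other 5 detected members. miR-34c-3p averaged -3.44 ± 0.88 in codonopsis, -2.91 ± 0.53 in model and -3.17 ± 0.42 in control lungs (SD, n = 3 each). miR-34b-3p averaged -5.18 ± 0.78 in codonopsis, -4.98 ± 0.58 in model and -4.01 ± 1.13 in control lungs (SD, n = 3 each).

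miR-449a-5p, from the other multiciliated-cell locus, had -3.80, -1.96 and -2.58 in codonopsis lungs, -1.28, -2.72 and -1.73 in model lungs and -1.64, -2.38 and -2.84 in control lungs. The lowest and highest arrays were again codonopsis 1 and model 1, 5.74-fold apart, and every group overlapped the others. Means were -2.78 ± 0.94 in codonopsis, -1.91 ± 0.74 in model and -2.29 ± 0.60 in control lungs (SD, n = 3 each).

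**Figure D1:**
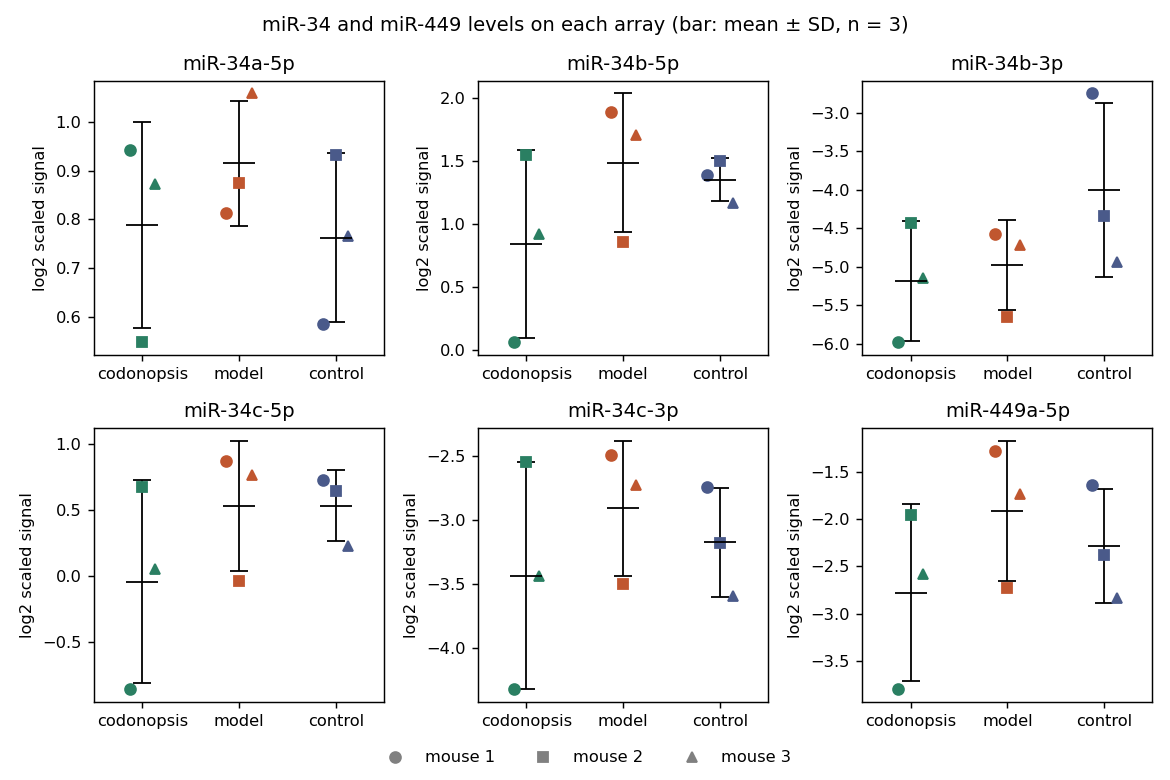
Log2 scaled signal (y axis, a separate scale in each panel) of the 6 detected members on each array, by group, with the mean and SD of 3 mice as bars and 1 marker shape per mouse number (numbers only name mice within a group). Codonopsis mouse 1 is the lowest point for the 5 members other than miR-34a-5p, and the groups overlap in every panel.

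The first comparison, model against control, asks what D-galactose and sodium nitrite were accompanied by in lung. None of the 6 tested members passed an adjusted p of 0.05 in limma's moderated test, in a comparison in which 0% of the 404 tested miRNAs did (47 had an unadjusted p under 0.05). In none did the arrays of the groups separate, against 23.3% of all tested miRNAs. miR-34a-5p differed by 0.15 (SE 0.162, 95% interval -0.22 to 0.53, limma adjusted p = 0.665). miR-34b-5p differed by 0.13 (SE 0.405, interval -0.81 to 1.07), and miR-34c-5p by -0.00 (SE 0.408, interval -0.95 to 0.95). miR-34c-3p differed by 0.27 (SE 0.474) and miR-449a-5p by 0.38 (SE 0.565). The widest gap was that of miR-34b-3p, at -0.97 (SE 0.628, limma adjusted p = 0.545), and it was -0.34 without control 1. Of the 5 tested multiciliated-cell members 3 were higher, beside 220 of all 404 miRNAs. Their median was 0.13, beside 0.04 over all 404.

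The second comparison, codonopsis against model on the same slide, asks what differed between these 2 treatments. Days of treatment and sex differ between them as well. Whether the codonopsis mice received D-galactose and nitrite is not stated. An effect of the plant cannot be told apart from these. Again 0 of 6 members passed, beside 0% of all tested miRNAs (43 had an unadjusted p under 0.05), and 0 of 6 had separated groups, beside 37.1% of all. All 5 multiciliated-cell members had lower means in codonopsis than in model lungs, while 160 of all 404 tested miRNAs had higher means. miR-449a-5p differed by -0.87 (SE 0.565, interval -2.18 to 0.45, limma adjusted p = 0.508). miR-34b-5p differed by -0.64 (SE 0.405, limma adjusted p = 0.501), miR-34c-5p by -0.57 (SE 0.408), miR-34c-3p by -0.53 (SE 0.474) and miR-34b-3p by -0.20 (SE 0.628). Their median was -0.57, beside -0.11 over all miRNAs. These values depended strongly on single mice. Without codonopsis 1 the median was -0.17, beside -0.12 over all miRNAs, and 1 of 5 members had a higher mean in codonopsis lungs. Model 2 was low for all 5 members too, and without it the median was -0.85. Codonopsis 2 was high for all 5, and without it the median was -0.97. With sex as a covariate and no mouse left out, the median was -0.74. miR-34a-5p differed by -0.13 (SE 0.162, interval -0.50 to 0.25).

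The third comparison, codonopsis against control, shares its codonopsis arrays with the second and its control arrays with the first. No member passed, beside 0.990% of all tested miRNAs (4 of 404), and no member's groups separated, beside 12.6% of all. miR-34b-3p differed by -1.17 (SE 0.628, interval -2.63 to 0.29, limma adjusted p = 0.490) and by -0.54 without control 1. miR-34c-5p differed by -0.57 (SE 0.408), miR-34b-5p by -0.51 (SE 0.405), miR-449a-5p by -0.49 (SE 0.565) and miR-34c-3p by -0.26 (SE 0.474). The median of the 5 was -0.51, beside -0.03 over all miRNAs, and -0.12 without codonopsis 1, when 2 of 5 had a higher mean in codonopsis lungs. That median was -0.90 without codonopsis 2. miR-34a-5p differed by 0.03 (SE 0.162, interval -0.35 to 0.40). In bulk lung RNA, fewer multiciliated cells and less of these miRNAs per cell cannot be told apart.

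**Figure D2:**
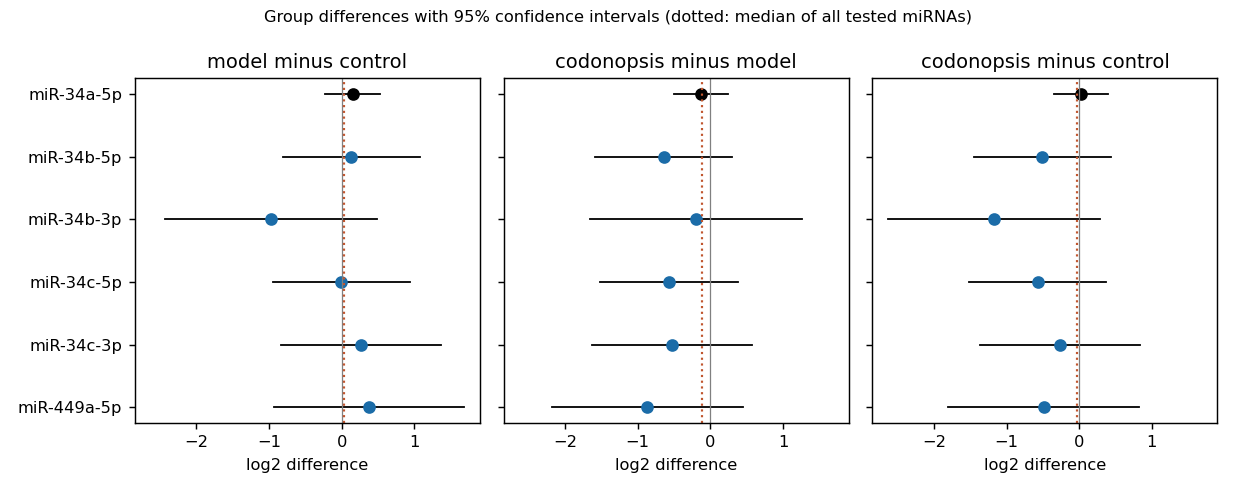
Log2 difference between group means (x axis) for the 6 tested members in the 3 comparisons, with the 95% confidence interval of the limma fit over 9 arrays as a line. Each interval includes 0, and the dotted line is the median of the 404 tested miRNAs (0.04, -0.11 and -0.03, in panel order).

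For each of the 6 detected members, the range among the mice of 1 group or more exceeded every difference between group means. Expressed as the deviation from each miRNA's own mean over 9 arrays, the 5 multiciliated-cell members averaged -1.25, 0.39 and -0.31 in codonopsis lungs, 0.61, -0.48 and 0.39 in model lungs and 0.73, 0.18 and -0.26 in control lungs. On codonopsis 1 all 5 lay between -1.47 and -1.14, and on codonopsis 2 all 5 lay between 0.30 and 0.62. Both of these mice are labelled male, and both arrays lie on slide 1. On the same 2 arrays miR-34a-5p deviated by 0.12 and by -0.27, so that it was second highest on the array where the others were lowest. Deviations of miR-34a-5p stayed between -0.27 and 0.24 over the 9 arrays.

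**Figure D3:**
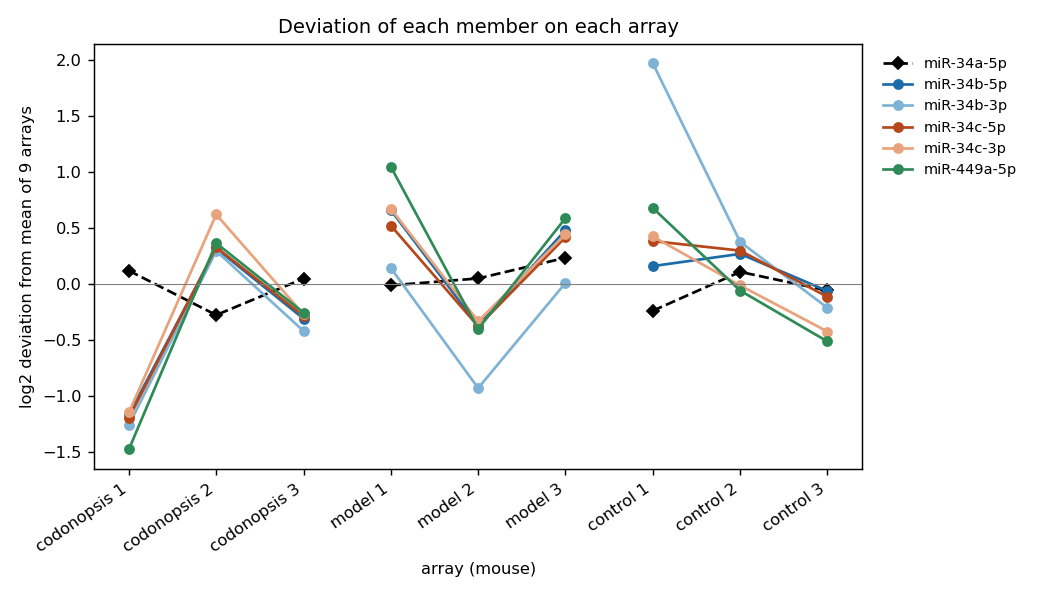
Deviation of each detected member from its own mean over 9 arrays (y axis, log2) on each array (x axis), with lines joining the arrays of a group for reading only. The multiciliated-cell members move together, from -1.25 on average on codonopsis 1 to 0.61 on model 1, while miR-34a-5p (black, dashed) stays near 0. On control 1 miR-34b-3p departs from the rest, at 1.97 against 0.16 to 0.68, and raises the average there to 0.73.

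The spread between mice of a group was measured as the residual SD of the fit. It was 0.54 for miR-34b-5p, 0.55 for miR-34c-5p, 0.64 for miR-34c-3p, 0.77 for miR-449a-5p and 0.86 for miR-34b-3p, against a median of 0.30 over all 404 miRNAs. Since the spread differed with level, each was also ranked among the 101 miRNAs of its own level bin (4 equal bins of the 404). miR-34b-5p and miR-34c-5p lay at the 91.1 and 92.1 percentile of their bin, miR-449a-5p at the 92.1, miR-34c-3p at the 89.1 and miR-34b-3p at the 69.3. miR-34a-5p, in the same bin as miR-34b-5p, had an SD of 0.17 and lay at the 39.6 percentile. Without codonopsis 1 the SD of miR-34b-5p and miR-34c-5p was 0.41 and 0.40, beside a median of 0.31 over all miRNAs. Without control 1 these SDs were 0.60 and 0.59, beside a median of 0.22 over all miRNAs.

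**Figure D4:**
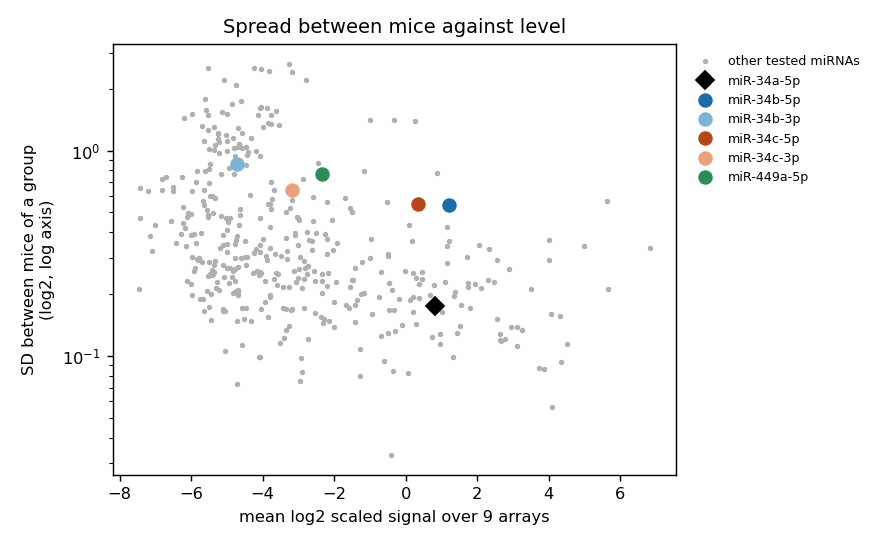
Residual SD between mice of a group (y axis, log2 units on a log axis) against the mean log2 scaled signal over 9 arrays (x axis) for the 404 tested miRNAs, with the 6 tested members in colour. miR-34b-5p and miR-34c-5p (0.54 and 0.55) lie above most miRNAs of like level, and miR-34a-5p (0.17) lies among them.

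Spots and probes gave a view of measurement error that is separate from the mice. Each detected member has 2 probes of 15 spots. The 2 probes gave the same sign of difference in 16 of 18 cases. The exceptions were miR-34a-5p for codonopsis minus control, with -0.06 and 0.06, and miR-34c-5p for model minus control, with -0.17 and 0.06. For codonopsis minus model the probes of miR-449a-5p gave -0.88 and -0.83, and those of miR-34b-5p gave -0.65 and -0.63.

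Likeness between members was measured as Pearson's r over the 9 arrays, which share normalization and 2 slides, and is given as a description. miR-34b-5p and miR-34c-5p had r = 0.98 (Spearman's rho 0.95), and 0.94 without codonopsis 1 and model 2, the arrays farthest from the median. The 6 pairs among miR-34b-5p, miR-34c-5p, miR-34c-3p and miR-449a-5p had r between 0.93 and 0.98, between 0.92 and 0.99 after group means were taken out, and between 0.85 and 0.96 without codonopsis 1. Over all pairs of the 289 miRNAs detected on every array the median r was 0.02, and 1.75% of pairs lay above 0.9. Thus miR-449a-5p, on chromosome 13, followed the chromosome 9 arms about as closely as these followed each other, with r = 0.97 to miR-34c-3p.

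Both arms of Mir34b were less alike than both arms of Mir34c. miR-34c-5p and miR-34c-3p had r = 0.95, whereas miR-34b-5p and miR-34b-3p had r = 0.63, which was 0.91 without control 1 and 0.19 without codonopsis 1 and model 2. miR-34a-5p shares its seed with miR-34b-5p and miR-449a-5p, as printed above, but its r with the 5 multiciliated-cell members lay between -0.58 and -0.22. Those negative values rested on codonopsis 2 and control 1, without which they lay between -0.01 and 0.08.

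**Figure D5:**
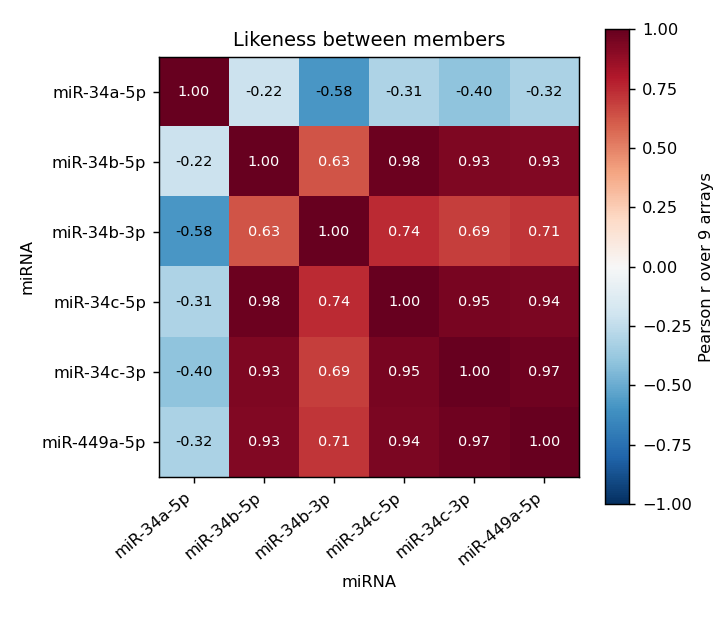
Pearson's r over 9 arrays between the 6 detected members (rows and columns), as colour and number. miR-34b-5p, miR-34c-5p, miR-34c-3p and miR-449a-5p form a block at 0.93 to 0.98, miR-34b-3p is less like them, and miR-34a-5p has negative values with all 5.

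The miRNAs outside the family that were most like the mean of the 5 multiciliated-cell members were miR-193b-3p (r = 0.85), miR-375-3p (0.84), miR-1895 (0.81), miR-133b-3p (0.77) and miR-133a-3p (0.77), over 9 arrays. miR-375-3p is an epithelial and neuroendocrine miRNA, and miR-133a-3p and miR-133b-3p are muscle miRNAs. Without codonopsis 1 these values were 0.68 for miR-193b-3p, 0.89 for miR-375-3p, 0.63 for miR-1895, 0.63 for miR-133b-3p and 0.62 for miR-133a-3p. Those most like miR-34a-5p were miR-183-5p (0.93), miR-181c-5p (0.89), miR-219a-5p (0.87), miR-10a-5p (0.86) and miR-542-3p (0.86).

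Markers of other epithelium followed the family only in part. The summed linear signal of the multiciliated-cell members was 1.73 to 4.99 in codonopsis, 3.05 to 6.15 in model and 3.67 to 4.89 in control lungs, in units of each array's 75th percentile. That of 12 miRNAs of other lung epithelium, led by the miR-200 family, which maintains epithelial identity, was 9.09 to 9.96 in codonopsis, 10.0 to 12.2 in model and 8.41 to 10.9 in control lungs. All 11 tested epithelial miRNAs had lower means in codonopsis than in model lungs (median -0.23), 10 of 11 had higher means in model than in control lungs (median 0.13), and 3 of 11 had higher means in codonopsis than in control lungs (median -0.03). Of all 404 tested miRNAs, 160, 220 and 188 had higher means in codonopsis minus model, model minus control and codonopsis minus control. Their medians were -0.11, 0.04 and -0.03. None of the 11 epithelial miRNAs passed. The smallest p were those of miR-200c-3p, at 0.47 for model minus control (SE 0.131, limma adjusted p = 0.332) and -0.29 for codonopsis minus model, and of miR-375-3p, at -0.35 for codonopsis minus control. Across the 9 arrays the mean of the multiciliated-cell members had r above 0 with 6 of the 11 epithelial miRNAs detected on all arrays. The highest were 0.84 with miR-375-3p and 0.61 with miR-200a-3p, and the lowest were -0.37 with miR-182-5p and -0.45 with miR-183-5p. Their part in the values of the family was not tested.

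Heart and striated muscle miRNAs summed to 0.63, 8.96 and 0.53 in codonopsis lungs, 5.22, 2.92 and 2.92 in model lungs and 4.29, 2.63 and 3.11 in control lungs. They were thus low on codonopsis 1, where the multiciliated-cell members were lowest, and also on codonopsis 3, and highest on codonopsis 2. The 3 of them detected on all arrays had r between 0.71 and 0.77 with the mean of the multiciliated-cell members over 9 arrays. Their part in the values of the family was not tested.

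miR-34a-5p was set beside 9 other tested miRNAs linked to p53, such as the miR-192 and miR-194 pair and miR-107-3p. None passed in any comparison. In model minus control 7 of 9 had higher means (median 0.16), in codonopsis minus model 0 of 9 (median -0.15) and in codonopsis minus control 3 of 9 (median -0.04). Of all 404 tested miRNAs, 220, 160 and 188 had higher means in these comparisons, with medians of 0.04, -0.11 and -0.03. The value of miR-34a-5p, 0.15, -0.13 and 0.03 in the same order, lay close to each median of the 9. Among the 9, those with the smallest p were miR-145a-5p, at -0.53 for model minus control and -0.57 for codonopsis minus control, and miR-192-5p, at -0.28 for codonopsis minus model.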

How the data were processed

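Total lung RNA (TRIzol) was labelled with Cy3, per the labels' protocols. The deposited scanner files hold linear fluorescence intensity, corrected for background by Feature Extraction (version 11.5.1.1 per the file headers, 10.10 per the submitters' processing notes), and a deposited detection flag per miRNA. The authors also deposited a table of normalized log2 values, used as an alternative.

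Here, 2.86% to 3.28% of spots flagged as outliers or non-uniform were left out. Intensity was averaged over spots and then probes, scaled to the 75th percentile of each array over 289 miRNAs that every array detected, floored at log2 -8 and logged. limma 3.58.1 (R 4.3.3; lmFit, eBayes, two-sided) took the 9 arrays together, with group as factor, for the 404 miRNAs that some group detected in all 3 mice, with Benjamini-Hochberg adjustment over them. It was tested on simulated data. The number of arrays limits precision. Each p-value sets a difference between group means against the spread between mice of a group, which eBayes moderates across the 404 miRNAs. Where control is compared, that difference also holds any effect of the slide. Separated groups means that no array of 1 group lies within the range of the other.

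The members and lists were chosen with earlier results of these data known. Named beside the 7 members were other miR-34 or miR-449 entries, miRNAs of the same seed, the 5 miRNAs most like the multiciliated mean and miR-34a-5p, and from each list the miRNA of smallest p. The planned normexp alternative used the median spot signal in place of the mean.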

Additional observations from a re-analysis of the deposited data

How the results depend on the processing

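No member passed under any setting tried, and the smallest adjusted p of a member was 0.267 (limma, sex as a covariate, codonopsis minus control). The sign turned in 20 recomputed member differences and was the same in 364, many of which could not change. Another filter, a trend or slide 1 alone leaves a difference as it was. So does leaving out a mouse of the group not compared. The sign turned for miR-34a-5p in codonopsis minus model, to 0.007 with quantile normalization, 0.048 with the brightest probe and 0.004 with sex as a covariate. It turned for miR-34c-3p with flagged spots kept, to 0.22 in codonopsis minus model and 0.48 in codonopsis minus control, where 1 flagged spot of codonopsis 1 was far brighter than its probe. It turned for miR-34c-5p in model minus control, to 0.57 with the percentile over all miRNAs, 0.032 with normexp, 0.012 with flagged spots kept and 0.022 with sex as a covariate. The titles reuse the numbers 1 and 2 across groups, with nothing that ties a number to a litter, batch or day, and same-numbered mice of different groups did not deviate together (r from -0.62 to 0.24 over 8 pairs). With this number as a replicate block, added after the data were seen, miR-34a-5p was at -0.000 in codonopsis minus control, the other 17 member differences kept their sign and 0 miRNAs passed in any comparison. Apart from that spot, the cause was not tested. With 1 mouse left out at a time, values ran from -0.062 to 0.146 for miR-34a-5p, from -0.70 to 0.18 for miR-34c-3p and from -0.901 to 0.019 for miR-449a-5p in codonopsis minus control. They ran from -0.58 to 0.20 for miR-34b-3p in codonopsis minus model, and from -0.068 to 0.447 for miR-34b-5p, -0.17 to 0.28 for miR-34c-5p, 0.06 to 0.56 for miR-34c-3p and 0.06 to 0.78 for miR-449a-5p in model minus control. The median of the multiciliated-cell members in model minus control was 0.70, 0.02 and 0.06 with the percentile over all miRNAs, quantile normalization and the deposited log2 table, beside 0.62, 0.36 and 0.37 over all miRNAs, so that its direction against all miRNAs turned under the last 2 settings. It turned also with the block (0.017 beside 0.029) and without model 1 (-0.068 beside 0.056), and with 1 mouse left out the median ran from -0.068 to 0.447. The number of all miRNAs passing in codonopsis minus control, 4 in the report, was 0 with the percentile over all miRNAs, quantile normalization, normexp, a filter of detection on 1 array, no filter or a trend, 2 with flagged spots kept, and 0 to 46 with 1 mouse left out, the 46 without control 1. In codonopsis minus model, with 0 in the report, it was 2 with the deposited total intensity, 1 with the deposited log2 table, 17 with slide 1 alone and 0 to 35 with 1 mouse left out, the 35 without control 1.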

Other observations

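The arms of Mir34b did not move alike, which was noticed after the values were seen. The deviation of miR-34b-3p minus that of miR-34b-5p was -0.11 to -0.02 in codonopsis lungs, -0.56 to -0.47 in model lungs and -0.15 to 1.81 in control lungs, so that all 3 model arrays lay below the other 6. The same held with flagged spots kept and the brightest probe, but not under 4 other settings. Scaling by the percentile over all miRNAs cannot alter this difference, since both arms of an array share its scaling factor. The model arrays and the other 6 overlapped in the deposited log2 table (-0.73 to 0.11 in model, -0.77 to 0.54 in the others), with quantile normalization (-0.42 to -0.03 in model, -0.32 to 0.39 in the others), with normexp (-0.63 to 0.13 in model, -0.45 to 0.88 in the others) and with the deposited total intensity (-1.02 to -0.33 in model, -0.59 to 1.95 in the others). miR-34b-3p was close to background on some arrays of each group. The spots of its 2 probes that were well above background were 0% and 20% on model 2 and 13.3% and 93.3% on model 3. They were 0% for both on codonopsis 1, 13.3% and 86.7% on control 3 and 100% for both on control 1. No test was made of the difference between the arms.

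Among the lists of other cell types, none of the tested miRNAs passed in any comparison. The 2 endothelial miRNAs had medians of -0.25, -0.15 and -0.40 in the order of the comparisons above (model with control, codonopsis with model, codonopsis with control). In the first and last the 2 went opposite ways, so that these medians describe neither. miR-126a-5p was at -0.89 in the first (SE 0.218, limma adjusted p = 0.283) and -0.99 in the last. miR-126a-3p was at 0.39 in the first, -0.20 in the second and 0.19 in the last. Smooth muscle and fibroblast miRNAs had medians of -0.20, -0.25 and -0.41 over 5 members, with miR-145a-5p at -0.53, miR-214-3p at -0.37 and miR-199a-5p at -0.45 in the same order of comparisons. Erythroid miRNAs had medians of -0.01, 0.09 and 0.13 over 3 members, with miR-144-3p at 0.14, miR-451a at 0.15 and miR-144-3p at 0.23. Leukocyte miRNAs had medians of -0.37, 0.01 and -0.31 over 4 members, with miR-142a-3p at -0.93, miR-150-5p at 0.26 and miR-142a-3p at -0.90. The 4 tested heart and striated muscle miRNAs had medians of 0.09, -1.29 and -1.20, with miR-206-3p at -0.20, 0.89 and 0.69.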
